A study of Rattus norvegicus with 30 samples.

Results

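The 10 genes described here code for proteins of the cell-to-cell junctions of hepatocytes, and were named one by one: the gap junction genes Gjb1, Gjb2 and Gja1, the tight junction genes Cldn1, Cldn2, Cldn3, Ocln and Tjp1, and the adherens junction genes Cdh1 and Cdh2. All 10 passed the filter on low signals and were among the 10222 genes tested. RNA was measured on 30 rat whole-genome expression arrays, 1 for each culture well of primary hepatocytes dosed with methapyrilene hydrochloride, an antihistamine that is toxic to rat liver. There were 6 groups of 5 wells: 100 µM and 3 µM methapyrilene and a DMSO vehicle labelled 1%, each harvested 24 h or 48 h after dosing on day 3 of culture. All wells held frozen, then thawed, hepatocytes of male Sprague Dawley rats on collagen under a Matrigel overlay, with no animal, age or genotype named. Nothing in the labels links a well to an animal, so p-values measure the spread between wells, which may be technical.

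Gap junctions are channels of connexin proteins through which neighbouring cells exchange ions and small molecules, and hepatocytes build theirs mainly from the products of Gjb1 and Gjb2. Tight junctions seal the bile canaliculus with claudins and occludin, which the scaffold protein encoded by Tjp1 ties to actin. Adherens junctions hold the cells together through cadherins, whose tails bind catenins, and hepatocytes make both E-cadherin (Cdh1) and N-cadherin (Cdh2).

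At 100 µM, 6 of the 10 genes were lower than in DMSO at 24 h and the same 6 were lower at 48 h: Gjb1, Gjb2, Cldn1, Cldn3, Cdh1 and Cdh2. None of the 10 was called higher at either time. Gja1, Cldn2, Ocln and Tjp1 passed the test at neither time. Calls rest on an adjusted p below 0.05 from limma, adjusted by Benjamini-Hochberg over all genes tested. Of all genes, 15.8% were called lower and 19.8% higher at 24 h, and 14.5% lower and 18.9% higher at 48 h. The median log2 fold change of the 10 genes was -0.28 at 24 h and -0.23 at 48 h, beside 0.04 and 0.05 over all genes. The 5 wells at 100 µM lay wholly below the 5 DMSO wells for 6 of the 10 genes at 24 h and for 4 at 48 h, beside 11.9% and 12.1% of all genes. The sample titles carry array numbers, and each 6 consecutive numbers hold 1 well of each group, although no label calls them a batch. Compared within these sets of 6, each of the 6 genes was lower at 100 µM in 5 of 5 sets at both times. At 48 h Ocln and Tjp1, which were not called, were also lower in 5 of 5 sets. The share of all genes with this pattern was not counted.

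**Figure D1:**
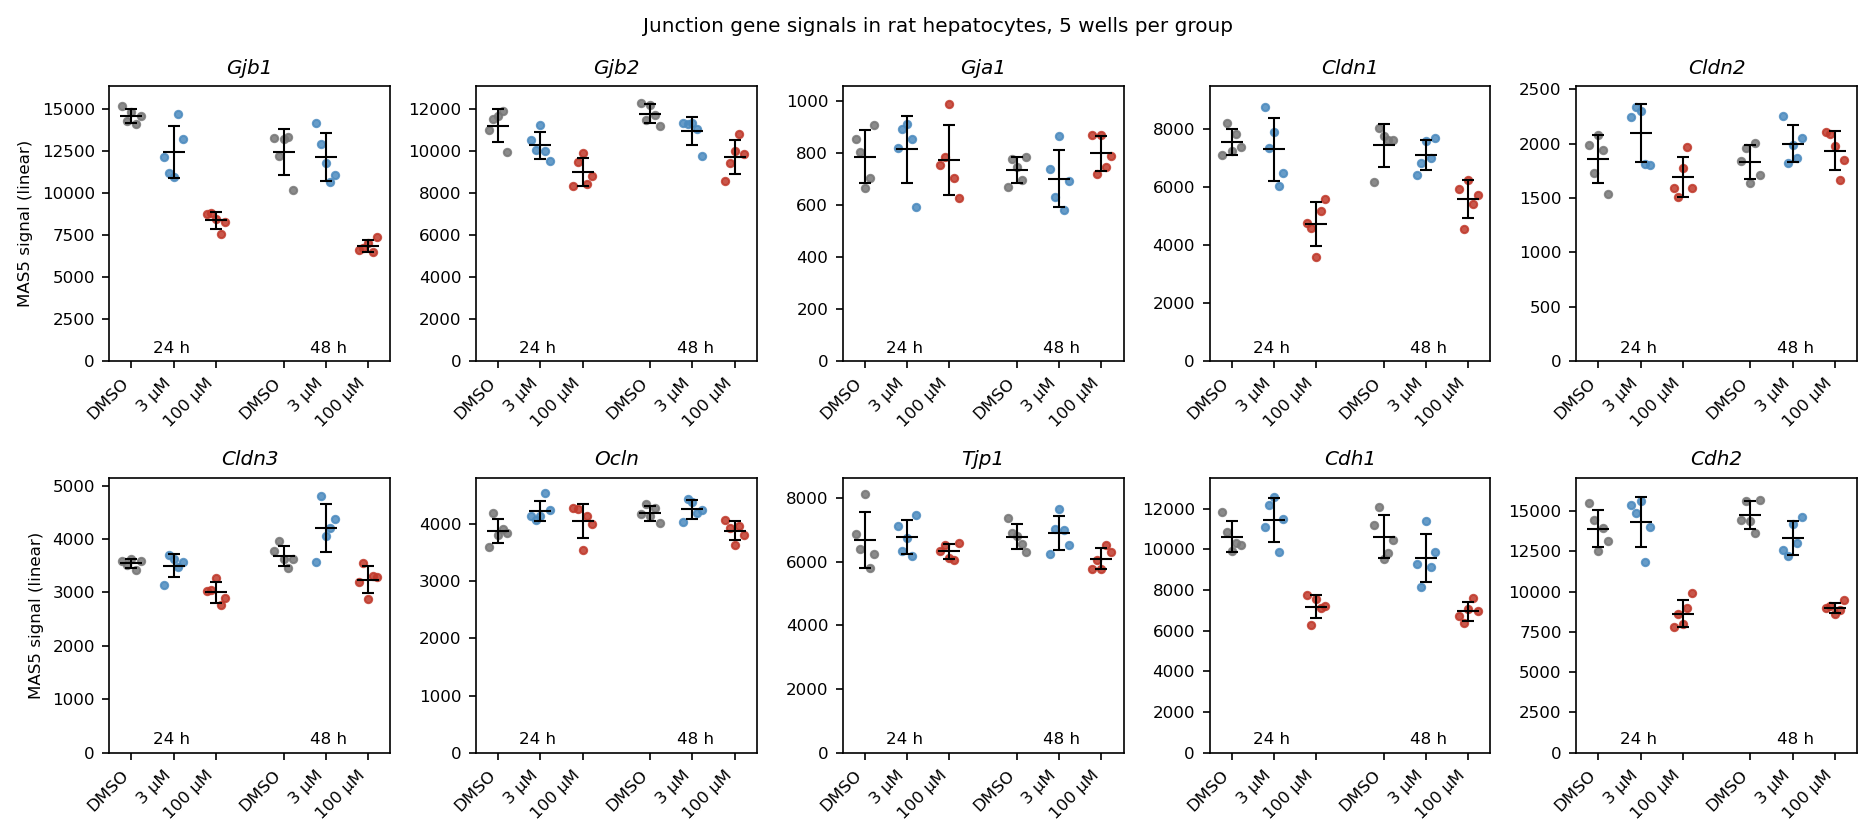
Array signal of each of the 10 junction genes in every well (points) by dose and time, with bars at the group mean and SD (n = 5 wells). Gjb1, Cldn1, Cdh1 and Cdh2 have their lowest group means at 100 µM, while the Gja1 groups overlap.

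Promoter sequences of the 4 connexin and claudin genes that were lower are shown because these genes were called lower at both times, by unequal amounts. They run from 250 bases before to 50 bases after the RefSeq gene start, on build GRCr8, 5′ to 3′ on the gene's strand. RefSeq promoter entries matched 7 of the 10 genes. Capitals mark GTTAAT, a core of sites bound by the hepatocyte factor HNF1, and GGGCGG, the GC box, either as written or as the reverse complement. The Gjb1 window is chrX:70541595-70541894 on the plus strand, and Gjb2 is chr15:35381904-35382203 on the minus strand. The Cldn1 window is chr11:87926126-87926425 on the plus strand, and Cldn3 is chr12:27346498-27346797 on the minus strand.
Gjb1: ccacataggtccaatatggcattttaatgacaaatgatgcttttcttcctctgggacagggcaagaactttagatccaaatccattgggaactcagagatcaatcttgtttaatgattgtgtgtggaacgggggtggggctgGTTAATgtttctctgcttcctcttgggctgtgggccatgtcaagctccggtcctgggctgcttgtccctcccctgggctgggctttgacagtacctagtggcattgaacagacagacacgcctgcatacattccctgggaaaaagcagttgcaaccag
Gjb2: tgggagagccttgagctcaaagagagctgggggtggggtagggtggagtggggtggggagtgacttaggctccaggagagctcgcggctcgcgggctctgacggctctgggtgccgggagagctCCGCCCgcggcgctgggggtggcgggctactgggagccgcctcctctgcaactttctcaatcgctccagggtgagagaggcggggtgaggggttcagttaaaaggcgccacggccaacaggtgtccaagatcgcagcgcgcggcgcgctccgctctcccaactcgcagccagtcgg
Cldn1: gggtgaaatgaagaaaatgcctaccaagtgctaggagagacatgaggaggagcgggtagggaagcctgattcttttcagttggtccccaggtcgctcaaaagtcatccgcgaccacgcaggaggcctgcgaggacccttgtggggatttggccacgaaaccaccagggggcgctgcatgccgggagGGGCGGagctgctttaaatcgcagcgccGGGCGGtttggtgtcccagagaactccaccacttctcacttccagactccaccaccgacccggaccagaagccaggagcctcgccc
Cldn3: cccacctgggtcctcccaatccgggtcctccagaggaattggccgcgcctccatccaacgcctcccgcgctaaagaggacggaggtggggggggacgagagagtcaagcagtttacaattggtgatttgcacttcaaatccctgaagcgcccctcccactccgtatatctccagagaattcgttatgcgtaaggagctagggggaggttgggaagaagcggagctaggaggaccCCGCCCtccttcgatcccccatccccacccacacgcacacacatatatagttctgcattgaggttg
The Gjb1 window held 1 GTTAAT and no GGGCGG. The windows of Gjb2, Cldn1 and Cldn3 held no GTTAAT, and held GGGCGG at 1, 2 and 1 positions. Among 33469 rat promoters of this length, 7.45% held GTTAAT and 33.1% held GGGCGG on either strand. TATAAA (14.2% of promoters) was in none of the 7 windows, and the E box CAGGTG (18.8%) was at 1 position in those of Gjb2 and Cldn3 and at 2 in that of Ocln. GTTAAT was also at 1 position in the Tjp1 window, a gene that was not called. A match describes letters and is not evidence of binding.

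Gjb1, the main connexin of rat hepatocytes, had the largest change of the 10 genes at 100 µM against DMSO. At 24 h its signals were 8759, 8848, 8491, 7548 and 8299 at 100 µM, against 15164, 14266, 14810, 14124 and 14586 in DMSO. Every 100 µM well was below every DMSO well. The means were 8389 ± 518 at 100 µM and 14590 ± 419 in DMSO (SD, n = 5 each), a log2 fold change of -0.80 ± 0.079 (SE, adjusted p = 5.7e-10). At 48 h the signals were 6606, 6752, 7062, 6495 and 7383 at 100 µM, against 13258, 12192, 13239, 13351 and 10207 in DMSO. The groups again did not overlap, although 1 DMSO well was low. The log2 fold change was -0.85 ± 0.079 (adjusted p = 1.26e-10), or 1.81-fold lower at 100 µM.

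Gjb2, the second hepatocyte connexin, fell less. Its signals at 24 h were 8319, 9487, 9873, 8432 and 8800 at 100 µM, against 10970, 11506, 11655, 11897 and 9932 in DMSO. The highest 100 µM well lay just under the lowest DMSO well. The log2 fold change was -0.32 ± 0.063 at 24 h (adjusted p = 0.000136) and -0.28 ± 0.063 at 48 h (adjusted p = 0.00069). At 48 h the signals were 8583, 9401, 9974, 10796 and 9841 at 100 µM, against 12259, 11463, 12180, 11720 and 11190 in DMSO, again without overlap. Within arrays, the log2 change of Gjb1 minus that of Gjb2 was -0.48 at 24 h and -0.58 at 48 h. Both had an exact permutation p of 0.00794, the smallest that 5 wells against 5 allow, and 0.0159 after adjustment over the 6 pairs of genes and times compared this way.

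Gja1, a connexin of many non-parenchymal cells, was the dimmest of the 10 and did not pass the test. Its signals at 24 h were 754, 785, 985, 703 and 626 at 100 µM, against 852, 801, 663, 704 and 905 in DMSO. The groups overlapped, with a log2 fold change of -0.03 (95% interval -0.30 to 0.24, adjusted p = 0.88). At 48 h its signals were 868, 718, 866, 746 and 787 at 100 µM, against 670, 776, 747, 694 and 784 in DMSO, and the log2 fold change was 0.12 (95% interval -0.15 to 0.39, adjusted p = 0.549).

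Cldn1, a sealing claudin, was lower at both times. At 24 h its signals were 4754, 4596, 3571, 5168 and 5587 at 100 µM, against 7106, 8200, 7217, 7832 and 7377 in DMSO. The groups did not overlap, and the log2 fold change was -0.69 ± 0.10 (adjusted p = 1.37e-06). At 48 h the signals were 5939, 4553, 6249, 5422 and 5717 at 100 µM, against 6153, 8011, 7753, 7605 and 7611 in DMSO. Here 1 DMSO well fell inside the 100 µM range, and the log2 fold change was -0.42 ± 0.10 (adjusted p = 0.00136).

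Cldn3, another sealing claudin, fell by a smaller amount. Its signals at 24 h were 3030, 3037, 3266, 2757 and 2901 at 100 µM, against 3586, 3521, 3621, 3418 and 3581 in DMSO. The groups did not overlap, and the log2 fold change was -0.24 ± 0.068 (adjusted p = 0.00471). At 48 h its signals were 3191, 3550, 2868, 3308 and 3286 at 100 µM, against 3768, 3953, 3624, 3462 and 3624 in DMSO. The groups overlapped, with means of 3241 ± 247 at 100 µM and 3686 ± 184 in DMSO and a log2 fold change of -0.19 ± 0.068 (adjusted p = 0.0308). That call was lost without DMSO well 1 (adjusted p = 0.0605), DMSO well 2 (0.0873), 100 µM well 1 (0.0553) or 100 µM well 3 (0.117).

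Cldn2, a claudin that forms channels for cations, averaged 1690 ± 183 at 100 µM and 1855 ± 221 in DMSO at 24 h. Its log2 fold change was -0.13 at 24 h (95% interval -0.33 to 0.06) and 0.08 at 48 h (95% interval -0.12 to 0.28), and it passed at neither time. Ocln, the gene of occludin, averaged 4049 ± 297 at 100 µM and 3874 ± 210 in DMSO at 24 h, and 3885 ± 162 at 100 µM and 4194 ± 131 in DMSO at 48 h. It had log2 fold changes of 0.06 at 24 h (adjusted p = 0.422) and -0.11 at 48 h (adjusted p = 0.128). A second Ocln probe set was called higher at 24 h (0.36 ± 0.14, adjusted p = 0.0439), so the probe sets of Ocln disagreed. Tjp1, the scaffold gene, averaged 6331 ± 235 at 100 µM and 6690 ± 891 in DMSO at 24 h, and 6095 ± 331 at 100 µM and 6796 ± 396 in DMSO at 48 h. Its log2 fold changes were -0.07 at 24 h (adjusted p = 0.484) and -0.16 at 48 h (adjusted p = 0.0887).

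Cdh1, the gene of E-cadherin, was lower at both times. At 24 h its signals were 7756, 6259, 7539, 7138 and 7199 at 100 µM, against 11813, 10865, 9902, 10315 and 10214 in DMSO. At 48 h they were 6715, 6397, 7050, 7620 and 6965 at 100 µM, against 11212, 12094, 9537, 9814 and 10477 in DMSO. No well at 100 µM reached the DMSO range at either time. The log2 fold change was -0.57 ± 0.079 at 24 h (adjusted p = 5.89e-07) and -0.61 ± 0.079 at 48 h (adjusted p = 1.64e-07).

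Cdh2, the gene of N-cadherin, was lower by a similar amount. At 24 h its signals were 7773, 8576, 7971, 8955 and 9901 at 100 µM, against 15512, 14460, 12523, 13933 and 13110 in DMSO. At 48 h they were 8977, 9073, 8608, 8855 and 9459 at 100 µM, against 14442, 15587, 14404, 13628 and 15678 in DMSO. The groups did not overlap at either time. The log2 fold change was -0.69 ± 0.072 at 24 h (adjusted p = 2.42e-09) and -0.71 ± 0.072 at 48 h (adjusted p = 1.13e-09). The change of Cdh2 minus that of Cdh1 was -0.12 at 24 h (exact permutation, adjusted p = 0.341) and -0.10 at 48 h (adjusted p = 0.22).

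**Figure D2:**
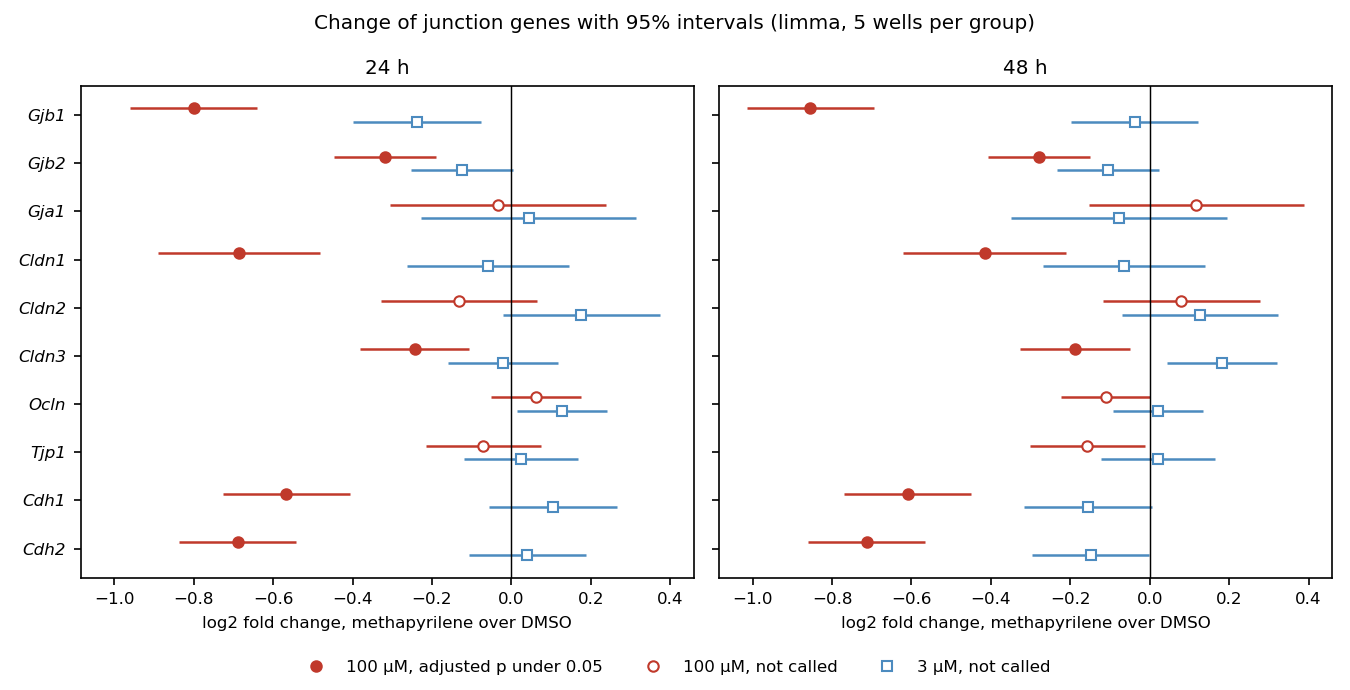
Log2 fold change of each junction gene, with its 95% interval, for 100 µM (circles, filled where called) and 3 µM (squares) against DMSO at 24 h and 48 h (limma, n = 5 wells a group). Gjb1 is the lowest at 100 µM against DMSO, at -0.80 (24 h) and -0.85 (48 h).

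Probe sets of one gene did not always move alike. For Cdh2, the other probe set had -0.15 ± 0.061 at 24 h (adjusted p = 0.0611) and -0.20 ± 0.061 at 48 h (adjusted p = 0.0107). Mean signals over all 30 arrays were close, at 12322 for the probe set used and 12024 for the other. At 100 µM and 24 h the other was the brighter (11237 against 8635). Within arrays, the log2 change of the probe set used minus that of the other was -0.54 at 24 h and -0.51 at 48 h. Each had an exact permutation p of 0.00794, or 0.0265 adjusted over 10. For Cldn1, the probe set of middle brightness gave -0.65 ± 0.067 at 24 h (adjusted p = 1.62e-09), while the dimmest gave -0.39 ± 0.12 (adjusted p = 0.0123) and was not called at 48 h (-0.18 ± 0.12, adjusted p = 0.295). A second Cdh1 probe set lay near background, and its fold change had an SE of 3.86 at 48 h.

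**Figure D3:**
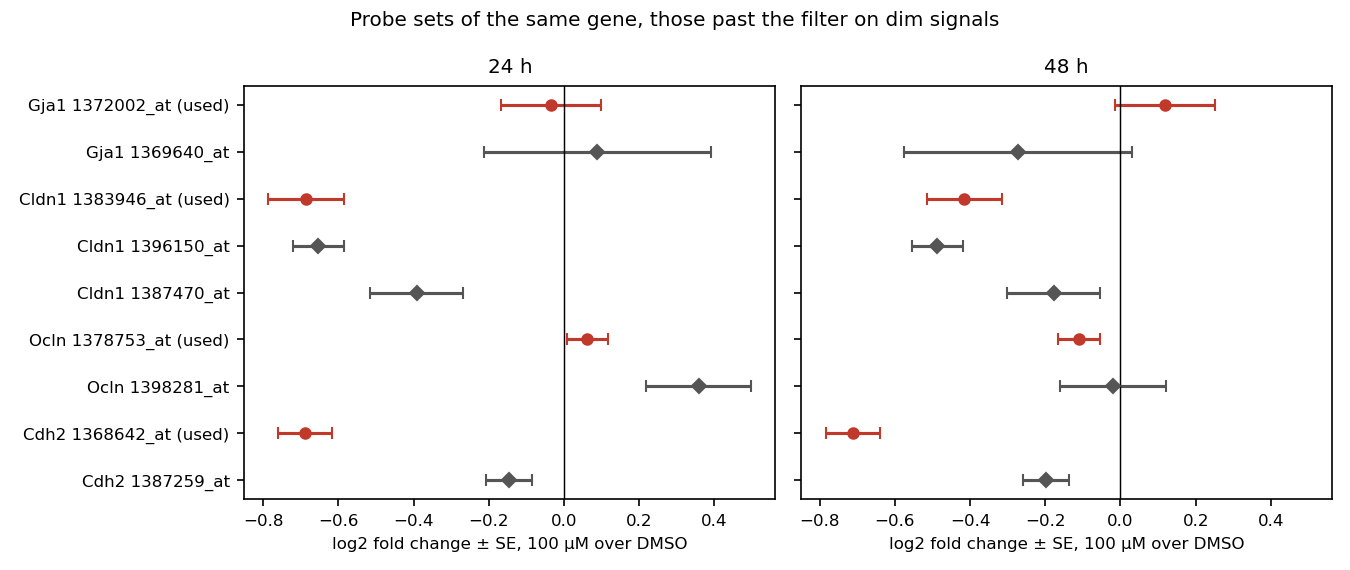
Log2 fold change at 100 µM against DMSO of the genes with several probe sets past the filter, at 24 h and 48 h, with bars for the SE. The Cdh2 probe sets stand apart, at -0.69 and -0.15 at 24 h.

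At 3 µM none of the 10 genes was called at 24 h or at 48 h by limma, beside 4.22% and 0.0391% of all genes. An unadjusted p under 0.05 was found for 2 of the 10 at each time. The share of all genes at that threshold was not counted. The nearest to a call was Gjb1 at 24 h. Its signals were 12174, 11192, 10933, 14738 and 13206 at 3 µM, all but 1 below every DMSO well, with a log2 fold change of -0.24 ± 0.079 (adjusted p = 0.0718). In wells 1, 2 and 3 of this group the ratio of 3′ to 5′ signal of the actin control, a sign of RNA quality, was 3.93 to 5.30, against 2.34 to 3.43 on the other 27 arrays. From the other 2 wells alone Gjb1 had -0.06 ± 0.093 (adjusted p = 0.896). The call was gained without well 4 (-0.30, adjusted p = 0.0103) or well 5 (-0.26, adjusted p = 0.0297). Cldn1 split the same wells in opposite directions by probe set. On the dimmest probe set its signals were 2551, 2202 and 2340 in wells 1 to 3 and 4565 and 4266 in wells 4 and 5. On the probe set used here they were 8759, 7329 and 7875 in wells 1 to 3 and 6025 and 6492 in wells 4 and 5. The part of RNA quality in these values was not tested. The other 5 genes that were lower at 100 µM had log2 fold changes of -0.13 to 0.10 at 3 µM against DMSO at 24 h. Their means at 3 µM were 10256 ± 642 for Gjb2, 7296 ± 1088 for Cldn1, 3501 ± 214 for Cldn3, 11441 ± 1060 for Cdh1 and 14325 ± 1533 for Cdh2 (SD, n = 5). At 48 h Cldn3 averaged 4199 ± 449 at 3 µM and 3686 ± 184 in DMSO (log2 fold change 0.18, adjusted p = 0.909). Cdh1 (-0.15) and Cdh2 (-0.15) were on the low side of DMSO without passing the test.

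**Figure D4:**
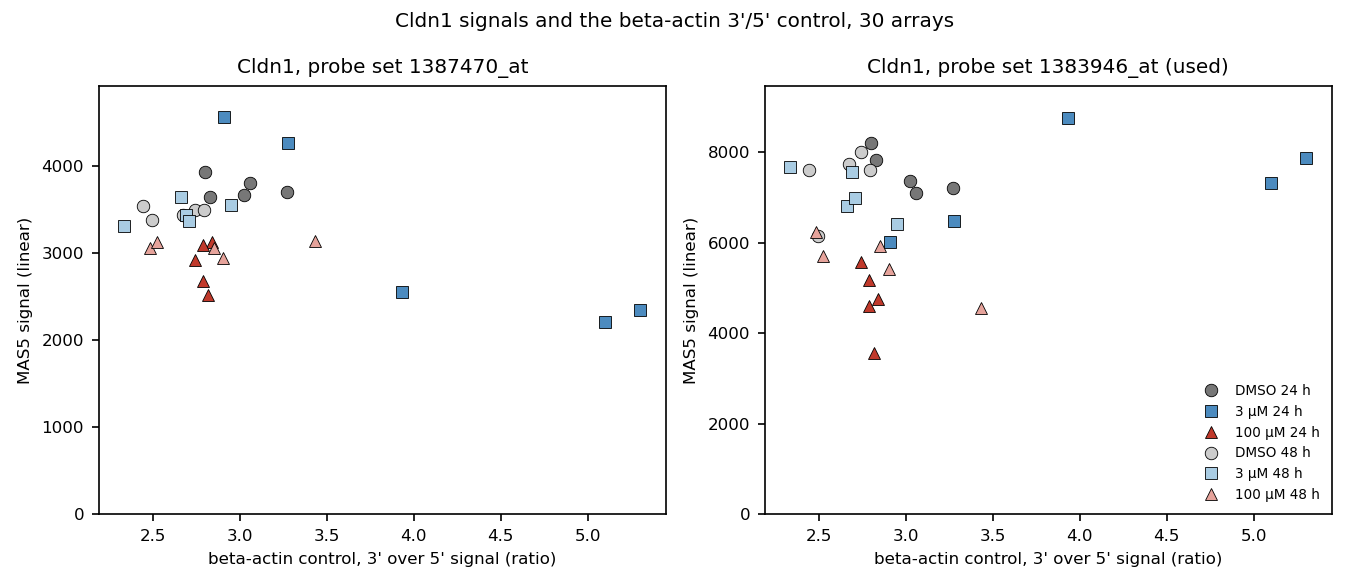
Signal of Cldn1 probe sets against the 3′ to 5′ ratio of the actin control, 1 point per array. Wells 1 to 3 of 3 µM at 24 h have ratios of 3.93 to 5.30, with signals of 2202 to 2551 on the dimmest probe set (left) and 7329 to 8759 on the probe set used (right).

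Set against 3 µM, 100 µM gave 7 genes called lower at 24 h, beside 19.1% of all genes, and 6 at 48 h, beside 12.6%. These comparisons share the 100 µM wells with those against DMSO. At 24 h the additional gene was Cldn2 (-0.31 ± 0.097, adjusted p = 0.0108). Of the others, Cdh2 had -0.73, Cdh1 -0.67, Cldn1 -0.63, Gjb1 -0.56, Cldn3 -0.22 and Gjb2 -0.19, so Gjb1 was not the lowest here. With 3 µM from wells 4 and 5 alone, 5 genes were called and both Cldn2 (-0.10, adjusted p = 0.587) and Gjb2 (-0.12, adjusted p = 0.286) were not. With these wells Gjb1 had -0.74, Cdh2 -0.58 and Cdh1 -0.57. At 48 h, in log2 fold change against 3 µM, Gjb1 had -0.82, Cdh2 -0.56, Cdh1 -0.45, Cldn3 -0.37, Cldn1 -0.35 and Gjb2 -0.17. The other bright Cdh2 probe set was not called then (-0.15, limma, adjusted p = 0.0634). The dimmest Cldn1 probe set was not called either (-0.18, adjusted p = 0.322), while the one of middle brightness was (-0.41, adjusted p = 1.14e-05). The Gjb2 call at 24 h was lost without well 1 of 100 µM (-0.17) or well 3 of 3 µM (-0.16). At 48 h it was lost without well 1, 2 or 5 of 100 µM (-0.13, -0.16 and -0.18) or well 1, 2, 3 or 4 of 3 µM (-0.16, -0.16, -0.16 and -0.17).

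Between the times, none of the 10 genes was called in DMSO at 48 h against 24 h by limma, beside 4.48% of all genes. An unadjusted p under 0.05 was found for 2, and the share of all genes at that threshold was not counted. Gjb1 was the exception in range, with all 5 wells at 48 h below all 5 at 24 h (beside 3.07% of all genes), a log2 fold change of -0.24 and an adjusted p of 0.0875. The change of the 100 µM effect between the times was called for none of the 10, beside 1.65% of all genes. For 1 of the 10 the unadjusted p was under 0.05, again without a counted share of all genes. This change of effect ran from -0.17 to 0.27 log2 units, so no difference between 48 h and 24 h was shown.

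Over the 6 groups the mean log2 signal of Gjb1 spanned 1.09, that of Cdh2 0.78, Cdh1 0.72 and Cldn1 0.69. The spans of Tjp1 (0.18) and Ocln (0.14) were the smallest. Both 100 µM groups were the lowest 2 of the 6 for Gjb1, Gjb2, Cldn1, Cldn3, Tjp1, Cdh1 and Cdh2. For Gjb1 they did not overlap each other, with 48 h the lower, as in DMSO. This pair of groups was not tested, and its share of all genes was not counted. The change of the 100 µM effect on Gjb1 between the times was -0.05 (limma, adjusted p = 0.913). Genes with the most similar profile, by root mean square difference of group means over the 6 groups, were C4bpb, a chain of the C4b-binding protein of complement (0.031), Hoga1, a mitochondrial aldolase (0.053), and Slc25a32, a mitochondrial folate carrier (0.056), for Gjb1. For Cdh2 they were the transferrin receptor gene Tfr2 (0.030), Ddah1 (0.030) and Sgcb (0.044), and for Cdh1 they were the fatty acid oxidation gene Acadvl (0.030), Aldh9a1 (0.032) and Slc41a2 (0.036).

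Other genes of the same junctions were called in both directions at 100 µM, in shares to be read beside those of all genes (19.8% higher and 15.8% lower at 24 h, 18.9% higher and 14.5% lower at 48 h). Of 25 other tight junction genes, 4 were called higher and 6 lower at each time, with median log2 fold changes of 0.0021 at 24 h and -0.03 at 48 h. Ildr2, of the angulin family, was higher at 24 h (0.68 ± 0.098), and F11r, a junctional adhesion molecule, was lower at both times (-0.24 and -0.43). Cxadr, the coxsackievirus and adenovirus receptor, was lower at 48 h (-0.59 ± 0.091, adjusted p = 3.88e-06), and Ybx3, a Y-box protein, was higher at both (0.45 and 0.44). Of 3 other claudins, 1 was lower at each time, Cldn7 (-0.55 and -0.78). Of 2 other connexins and pannexins, Panx1, a plasma membrane channel, was called higher at 24 h (0.53 ± 0.18, adjusted p = 0.0195). At 3 µM and 24 h, Pals1, a polarity scaffold, was called higher (0.46 ± 0.11, adjusted p = 0.0171), as was Vcl, the gene of vinculin (0.31 ± 0.075, adjusted p = 0.0196), both named after their values were seen. From wells 4 and 5 alone neither was called (Pals1 0.11, adjusted p = 0.825; Vcl 0.11, adjusted p = 0.715).

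Of 17 other adherens junction genes, 2 were higher and 6 lower at 24 h, and 2 were higher and 4 lower at 48 h. Pkp4, an armadillo protein, was lower (-0.76 and -0.63), as was Lima1, an actin-binding protein (-0.63 and -0.44). Cdh17, the liver-intestine cadherin, was lower at 48 h (-0.70, adjusted p = 5.08e-05), and Nectin3, an adhesion molecule, was higher (0.41 and 0.29). Of 7 desmosome genes, 2 were higher at 24 h, and 2 were higher and 1 lower at 48 h. Dsp, which anchors intermediate filaments, was higher at both (0.24 and 0.26), while Dsg2, a desmosomal cadherin, was lower at 48 h (-0.31, adjusted p = 0.00111). Dsc2, another desmosomal cadherin, was higher at 24 h (0.28, adjusted p = 0.0169), and Perp, a desmosome membrane protein, was higher at 48 h (0.24, adjusted p = 0.020). Of 7 regulators of junction genes, 2 were lower at 24 h, and 1 was higher and 2 lower at 48 h. Foxa1 was lower at both times (-0.54 and -1.14), Hnf4a at 24 h (-0.37) and Cebpa at 48 h (-0.58), all transcription factors of hepatocytes. Zeb1, a repressor of Cdh1 in other cells, was higher at 48 h (0.28, adjusted p = 0.0343).

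**Figure D5:**
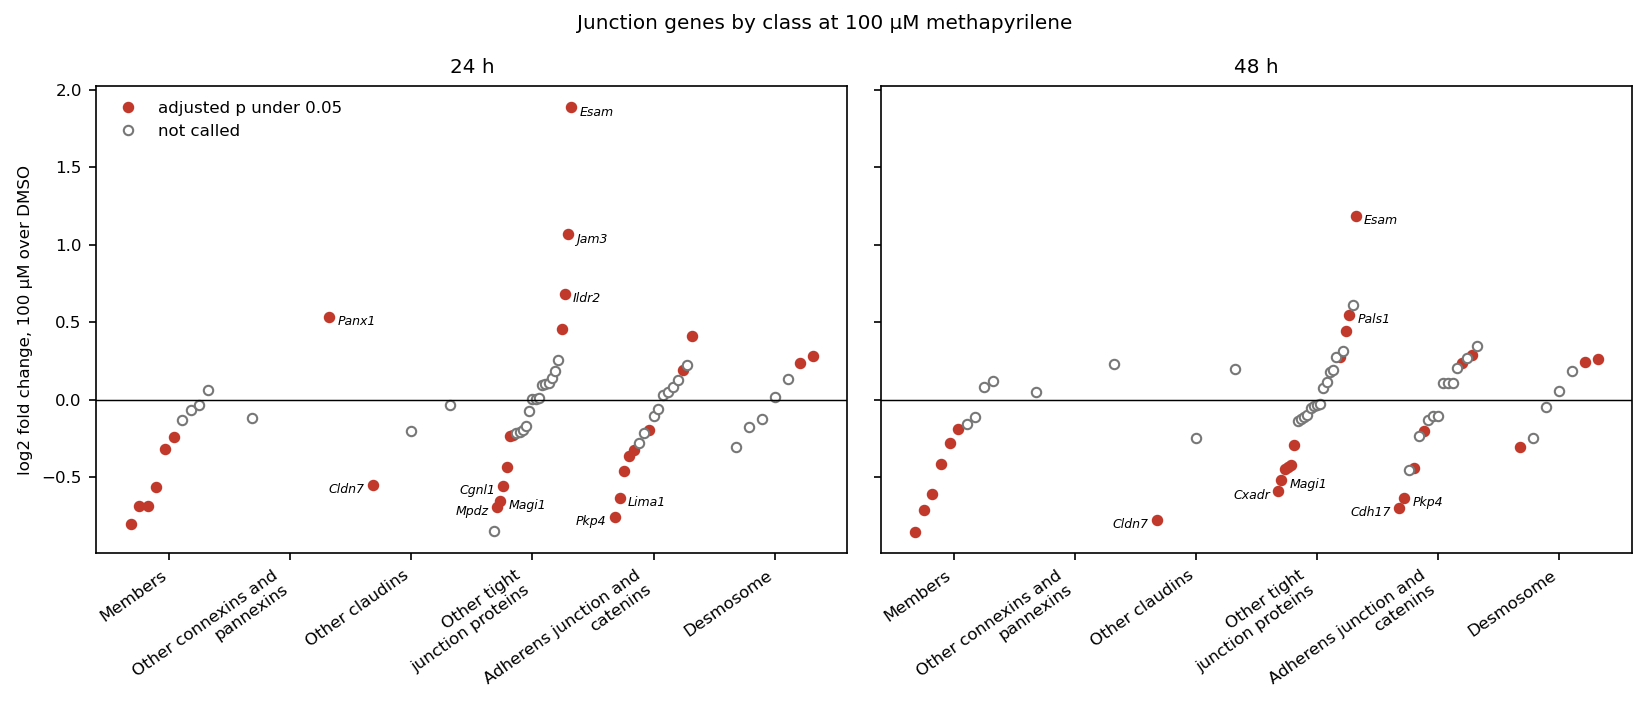
Log2 fold change at 100 µM against DMSO of the 10 genes and of other junction genes by class, at 24 h (left) and 48 h (right); filled points passed the test. Other tight junction genes lie on both sides of 0, with 4 called higher and 6 lower at each time.

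Hepatocyte markers were bright on every array (Alb 57477 to 113035), and all 9 measured passed the filter. At 100 µM 5 of the 9 were called lower at 24 h and 3 at 48 h, beside 15.8% and 14.5% of all genes, and none higher. At 24 h Tat averaged 9746 at 100 µM and 15360 in DMSO, and Cps1 48420 and 62220. Alb (90050 and 85970) and Apoa1 (66430 and 66030) were no lower at 24 h. Markers of other cells were also measured: 4 of 9 cholangiocyte, 8 of 13 stellate and fibroblast, 4 of 10 endothelial, 8 of 10 Kupffer and leukocyte and 3 of 4 mesothelial markers passed the filter. Krt7, Pecam1, Lrat, Pdgfrb and Ptprc did not. The sums below take in every listed marker with a probe set, also those that did not pass the filter. The summed stellate and fibroblast markers were 10162 to 13886 at 100 µM and 14067 to 15709 in DMSO at 24 h, and 12234 to 14249 at 100 µM and 16014 to 17320 in DMSO at 48 h. Vim made up most of that sum and of its difference, at a mean of 6818 at 100 µM and 10190 in DMSO at 24 h, and 8251 at 100 µM and 12110 in DMSO at 48 h. Of the 8 markers that passed the filter, 1 was called lower at 24 h, and 1 higher and 1 lower at 48 h. The share of all genes called higher at 48 h was 18.9%. Des averaged 751.7 at 100 µM and 506.1 in DMSO at 48 h. The endothelial sums overlapped at 24 h (2628 to 3553 at 100 µM and 2991 to 4092 in DMSO) and did not at 48 h (3160 to 3483 at 100 µM and 4202 to 4311 in DMSO). At 48 h Clec14a averaged 617.3 at 100 µM and 2026 in DMSO, while the means of Fcgr2b (704.2 and 541.1), Kdr (555.3 and 544.2) and Eng (516.4 and 496.2) were no lower at 100 µM than in DMSO.

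Kupffer and leukocyte sums overlapped at both times, at 10995 to 12067 at 100 µM and 10328 to 12703 in DMSO at 24 h, and 9917 to 12152 at 100 µM and 9621 to 10647 in DMSO at 48 h. Of the 8 markers of this list that passed the filter, 1 was called higher and 1 lower at 24 h. At 48 h 2 were called higher and 1 lower, and the median log2 fold change of the 8 was 0.36, beside 0.05 over all genes. The counts in this paragraph stand beside 19.8% of all genes called higher and 15.8% lower at 24 h. At 48 h these shares were 18.9% and 14.5%. Cd68 averaged 2308 at 100 µM and 739.1 in DMSO at 48 h. Lyz2, which made up most of the Kupffer and leukocyte sums, went the other way, at 6529 and 7475. Cholangiocyte sums were 12901 to 14350 at 100 µM and 11528 to 12920 in DMSO at 24 h, and 13113.5 to 14210 at 100 µM and 14872 to 15577 in DMSO at 48 h. They overlapped at 24 h, and at 48 h the 100 µM wells were all lower. Epcam made up most of the sum, at a mean of 11150 at 100 µM and 12410 in DMSO at 48 h. Krt19 was also lower then (164.7 and 435.4), while Aqp1 (945.6 and 813.6) and Prom1 (689.2 and 679.1) were no lower. Of the 4 that passed the filter, 1 was called higher at 24 h and 2 were called lower at 48 h. Mesothelial sums were 1768 to 2580 at 100 µM and 2327 to 3064 in DMSO at 24 h, with overlap. At 48 h they were 1907 to 2429 at 100 µM and 2463 to 3059 in DMSO, without overlap. Of the 3 mesothelial markers that passed the filter, 1 was called lower at 24 h and 2 at 48 h, and none higher. The part of other cells in the changes of the 10 genes was not tested, and fewer cells of a type cannot be told apart from less RNA per cell in these wells.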

How the data were processed

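RNA from 30 wells was hybridised to 30 arrays. The deposited values are intensity on a linear scale, made by the authors with MAS5 per the submitters' processing notes, with the version not given in the sources used here. Array medians were 361.677 to 471.419, and the number of arrays limits the precision. Values were log2 transformed without a pseudocount. Of 31099 probe sets, 20826 had 1 gene symbol, 436 several and 9780 none, and 57 were controls. A probe set was kept when at least 5 arrays exceeded their own median, and each gene took its brightest probe set. The fit with limma 3.58.1 in R 4.3.3 used 1 mean for each of the 6 groups over 30 arrays, which left 24 degrees of freedom, and eBayes with a trend (two-sided). Differences within arrays between paired genes or probe sets were compared between groups by exact permutation, 5 wells against 5. The members, gene lists and alternatives were chosen with earlier results of these data known. Other junction genes and regulators were named by a rule, up to 4 called genes of each list by adjusted p. For Gjb1, Cdh2 and Cdh1 the 3 most similar profiles were also named. Pals1 and Vcl were named outside this rule, after their values were seen. The cell type markers given singly were not picked by this rule either. Alternatives covered scaling, filter, pseudocount, probe set, variance model, array weights, sets of 6 consecutive array numbers as a block, actin ratio, threshold and left-out wells. No 2 arrays were identical. The fit was tested on simulated data.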

Additional observations from a re-analysis of the deposited data

Results flagged for a closer look

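In 3 of the 60 sets of 5 wells (10 genes in 6 groups), 1 well lay far from the other 4. Chance alone gives about 1 in 20 such sets. Gjb2 was 9752 in well 5 of 3 µM at 48 h, against 11043 to 11327 in the other wells. Gja1 was 593.2 in well 5 of 3 µM at 24 h, against 817.9 to 908.8 in the others. Cldn1 was 6153 in well 1 of DMSO at 48 h, against 7605 to 8011 in the others. That DMSO well is the one that overlapped the 100 µM range.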

How the results depend on the processing

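The counts of genes called at 100 µM against DMSO (6 at each time) stayed within 1.5 times under every alternative except the threshold of at least 1.5-fold, which left 3 at 24 h and 3 at 48 h. Leaving out 1 well gave 6 to 6 genes at 24 h and 5 to 6 at 48 h. For 100 µM against 3 µM the same threshold left 3 at 24 h and 1 at 48 h, and the actin ratio as a covariate left 4 at 24 h. With that covariate 1 gene, Gjb1, was called in DMSO at 48 h against 24 h (-0.28, adjusted p = 0.0305). For 3 µM against DMSO at 24 h, array weights gave 2 genes and leaving out 1 well gave 0 to 1. Over all genes, 431 were called there, and 4 with 3 µM from 2 wells. Other probe sets reversed Cdh1 at 48 h (0.10, near background) and Ocln at 100 µM against 3 µM at 24 h (0.40, adjusted p = 0.021). Centring each array on its median moved the share of calls that were higher at 100 µM against DMSO to 47.5% from 55.6% at 24 h and to 44.6% from 56.6% at 48 h, and left 6 of the 10 genes called lower at both times. The causes of these changes were not tested. Wells could not be paired by origin, because replicate numbers follow accession order and no label says that wells of different groups share one. The sets of 6 consecutive array numbers were inferred from the titles and order the arrays only. With these sets as a block, 6 genes were called at each time at 100 µM against DMSO.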
